A study of Mus musculus with 9 samples.

Results

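Glucagon and 3 transcription factor genes of the alpha cell, Gcg, Pou3f4, Irx1 and Irx2, were followed in whole pancreas of mouse embryos at e15.5. They were taken by symbol, each has 1 row in every deposited table, and they are 4 of 23235 gene symbols. All 4 passed the filter on low values that 13306 symbols passed, Pou3f4 only by its levels in wild type. The 9 libraries, 3 in each group, came from Blinc1-/- embryos (called knockout here), Blinc1+/- embryos (heterozygote) and Blinc1+/+ embryos (wild type), all on a mixed c57bl/6 and 129sv background. Blinc1 is a long noncoding RNA gene next to Nkx2-2 that has been linked to islet development. Blinc1 itself was not analysed here, since no row was found under that name, so the genotypes rest on the labels alone. The labels describe neither the mutant allele nor the embryo or litter behind each library. The p-values below therefore cover the spread among these 9 libraries, which may be technical in part. By sex-linked genes (below), the heterozygote and wild-type groups each hold both sexes, so their libraries do not all share the same embryo. Whole pancreas holds acinar, duct, endocrine, mesenchymal, vascular, nerve and blood cells, and in such bulk tissue fewer cells of a type and less RNA per cell cannot be told apart.

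Alpha cells are among the first endocrine cells of the mouse pancreas, arising from progenitors that express Neurog3. Gcg encodes proglucagon, the precursor of glucagon, which raises blood glucose; prohormone convertase Pcsk2 cuts out glucagon in alpha cells, while Pcsk1 releases GLP-1 in gut L cells. Pou3f4 (also called Brn4) is a POU homeodomain factor that binds the Gcg promoter and marks early alpha cells, though mouse alpha cells form without it. Irx1 and Irx2 are TALE homeodomain factors of the Iroquois family whose expression in the developing islet is confined mainly to alpha cells.

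The 4 genes lie at 3 places in the genome. Positions are 1-based on mm9. Gcg is on the minus strand of chromosome 2 at 62312587 to 62321710, with 6 exons in the matching GENCODE transcript. Pou3f4 is on the plus strand of chromosome X at 108009804 to 108010889, with 1 exon. This interval of 1086 bases is exactly the annotated coding sequence, so fragments from the untranslated ends of Pou3f4 were outside the locus measured. Irx1 (chromosome 13, minus strand, 72095680 to 72101171, 4 exons) and Irx2 (plus strand, 72766426 to 72771642, 5 exons) are neighbours in 1 Iroquois cluster, 665 kb apart with only 1 listed symbol, Gm20554, between them. Gcg lies between Dpp4, the gene of a protease that inactivates GLP-1, 62.3 kb away, and Fap, 17.3 kb away. Within 1 Mb, 0 of 6 tested neighbours of Gcg, 0 of 1 of Pou3f4, 0 of 1 of Irx1 and 0 of 7 of Irx2 passed the test described below in any of the 3 comparisons. The 1 tested neighbour of Irx1 is Irx2, and Irx1 is among the 7 of Irx2. As 0 of all 13306 tested genes passed in any comparison, these counts show nothing particular to the neighbourhoods.

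RefSeq promoter rows (GRCm38.p6) were matched for 3 of the 4 symbols, and the 250 bases before the start are shown because homeodomain factors are the shared class of the 3 regulators and the Gcg promoter is a known target of such factors. Capitals mark the homeodomain core TAAT on either strand and the TATA box TATAAA on the forward strand. The Gcg row is chr2:62483654-62483903 on the minus strand, the Pou3f4 row chrX:110814129-110814378 and the Irx2 row chr13:72628570-72628819, both on the plus strand.
Gcg: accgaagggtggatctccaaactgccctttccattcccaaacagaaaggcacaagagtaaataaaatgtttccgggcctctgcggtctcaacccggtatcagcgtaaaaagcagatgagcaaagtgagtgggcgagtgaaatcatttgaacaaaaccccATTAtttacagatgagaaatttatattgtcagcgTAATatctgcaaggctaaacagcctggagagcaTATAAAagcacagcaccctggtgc
Pou3f4: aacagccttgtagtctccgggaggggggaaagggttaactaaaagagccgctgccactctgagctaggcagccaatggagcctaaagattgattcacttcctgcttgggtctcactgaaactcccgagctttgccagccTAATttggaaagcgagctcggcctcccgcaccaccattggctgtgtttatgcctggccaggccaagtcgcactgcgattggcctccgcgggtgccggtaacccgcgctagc
Irx2: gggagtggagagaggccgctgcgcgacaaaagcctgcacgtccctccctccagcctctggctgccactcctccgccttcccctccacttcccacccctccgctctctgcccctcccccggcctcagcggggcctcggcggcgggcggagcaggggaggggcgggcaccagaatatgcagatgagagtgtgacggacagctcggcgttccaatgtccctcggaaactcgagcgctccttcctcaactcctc

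The Gcg promoter held 2 TAAT cores, at -91 to -88 and -57 to -54 relative to the start, and a TATA box at -24 to -19. The Pou3f4 promoter held 1 TAAT core at -111 to -108, and the Irx2 window held neither motif. TAAT occurs in 54.9% of all 32851 promoter windows of this length and TATAAA in 7.59%, so the first is common. Searched on both strands, the POU octamer ATGCAAAT (1.6% of windows) and the forkhead core TGTTTAC (3.17%) had no match in these windows. The GC content was 44.8% for Gcg, 58% for Pou3f4 and 68.4% for Irx2, against a median of 52.4% over all windows.

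Levels are the authors' FPKM, fragment counts scaled to transcript length and library depth, and can be compared between genes because they are scaled to length. Gcg was far above the 3 factors in every library, at rank 45 to 96 among all symbols, and was second to Ins2 among the 8 islet hormone genes in all 9 libraries. It made up 19.9% ± 2.22 of the summed FPKM of these 8 genes in knockouts, 16.4% ± 0.701 in heterozygotes and 16.9% ± 1.48 in wild type (SD, n = 3 each). Next came Irx2, at 2.22 to 3.77 FPKM, and Irx1, at 2.2 to 3.12 FPKM. Irx2 was above Irx1 in 6 of 9 libraries, a mean difference of 0.07 on the log2(FPKM + 1) scale (SD 0.22, exact paired permutation p = 0.33), so the order of these neighbours was within their spread. Pou3f4 was lowest in every library, at 0.593 to 1.87 FPKM.

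The depth behind these values differs widely. If the deposited confidence bounds reflect counting error, they imply 11 to 40 fragments per library for Pou3f4, 85 to 143 for Irx1, 104 to 212 for Irx2 and 11256 to 22402 for Gcg, from totals of 19523066 to 25426555 fragments per library. Pou3f4 is therefore measured with a large counting error and Gcg with a small one. Other members of both families were near the detection limit: Irx3, Irx4, Irx5 and Irx6 were at 0.697 FPKM or less and Pou3f1, Pou3f2 and Pou3f3 at 0.189 FPKM or less in every library.

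**Figure D1:**
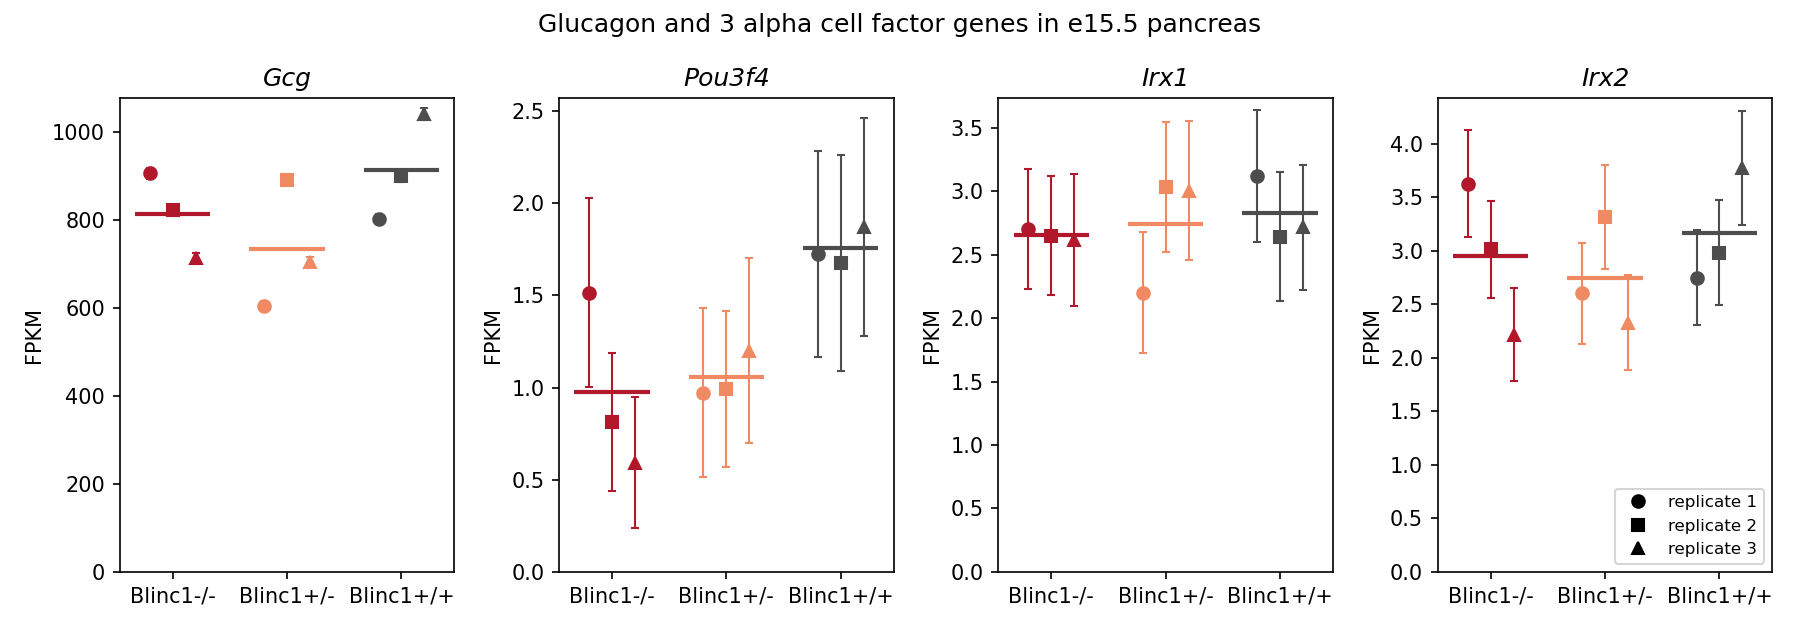
FPKM of Gcg, Pou3f4, Irx1 and Irx2 (vertical axes, linear from 0) in the 3 knockout (Blinc1-/-), 3 heterozygote (Blinc1+/-) and 3 wild-type (Blinc1+/+) libraries. Symbols are libraries by replicate number, bars are the deposited confidence bounds and horizontal lines are group means. Pou3f4 lies at 0.593 to 1.52 in knockouts and 0.971 to 1.2 in heterozygotes, below 1.68 to 1.87 in wild type, while the groups of the other 3 genes overlap.

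Pou3f4 showed the largest difference of the 4 genes between knockouts and wild type, without passing the test over all genes. Its level was 1.52, 0.813 and 0.593 FPKM in the knockout libraries, in replicate order, against 1.72, 1.68 and 1.87 FPKM in the wild-type libraries. Every knockout library lay below every wild-type library, but knockout replicate 1 only narrowly, with a deposited interval of 1 to 2.03 that overlaps all 3 wild-type values. The upper bound of knockout replicate 3, at 0.951 FPKM, lay below the lowest wild-type lower bound of 1.09 FPKM. Group means were 0.974 ± 0.482 FPKM in knockouts and 1.76 ± 0.101 FPKM in wild type (SD, n = 3 each), a ratio of 0.555. The difference on the log2(FPKM + 1) scale was -0.51 (SE 0.16, 95% interval -0.87 to -0.14, limma unadjusted p = 0.012, Benjamini-Hochberg adjusted p = 0.58). An exact two-sided permutation test gave p = 0.1, the smallest that 3 libraries against 3 allow. Of all tested genes, 6.64% also had every knockout library below every wild-type library. Pou3f4 met the filter of at least 1 FPKM in 3 libraries only through the wild-type libraries. Among the mutants, knockout replicate 1 and heterozygote replicate 3 alone reached 1 FPKM. Its tests against wild type therefore depend on the group where it was highest. With a pseudocount of 0.1, which dampens low values less, the difference was -0.88, and with voom on the implied fragments it was -0.91; neither passed (limma adjusted p = 0.58 and 0.55).

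Heterozygotes stood close to knockouts at Pou3f4. It was at 0.971, 0.992 and 1.2 FPKM in the 3 heterozygote libraries, all below the wild-type range and all within the knockout range. The group mean was 1.05 ± 0.127 FPKM in heterozygotes, against the same wild-type mean of 1.76 FPKM, a ratio of 0.601. The difference was -0.42 (SE 0.16, 95% interval -0.79 to -0.06, limma unadjusted p = 0.027, adjusted p = 0.94). Between heterozygotes and wild type, 7.05% of tested genes had all libraries of the first below those of the second, and for 2.17% all 6 mutant libraries lay below wild type. Both comparisons use the same 3 wild-type libraries. The knockout and heterozygote ranges overlapped, and 0 of the 4 genes had every knockout library below every heterozygote library, as 2.43% of tested genes had (Pou3f4 difference -0.08, SE 0.16, 95% interval -0.45 to 0.28, limma adjusted p = 1).

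Sex of the embryos moves with genotype here and Pou3f4 is X-linked. By Xist, Ddx3y and Eif2s3y all 3 knockout libraries were female, heterozygote replicate 3 and wild-type replicate 3 were also female, and the other 4 libraries were male. None of the 3 knockout libraries was male, so an adjustment for sex rests on the heterozygote and wild-type libraries of both sexes. Among females, Pou3f4 was at 0.593 to 1.52 FPKM in the 3 knockouts and 1.2 FPKM in the heterozygote, against 1.87 FPKM in the wild type. Among males it was at 0.971 and 0.992 FPKM in heterozygotes, against 1.72 and 1.68 FPKM in wild type. Mutant libraries thus lay below wild type within each sex, but this rests on 1 wild-type female and holds no male knockout. With sex as a covariate the difference between knockouts and wild type was -0.59 (SE 0.20, limma adjusted p = 0.87). The part of sex in the difference was not tested.

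Gcg varied more between libraries than between genotypes. It was at 905, 822 and 712 FPKM in knockouts, 604, 891 and 704 FPKM in heterozygotes, and 801, 899 and 1039 FPKM in wild type. The groups overlap in all 3 comparisons, and the lowest library, heterozygote replicate 1, and the highest, wild-type replicate 3, differ by a ratio of 1.72. Their deposited intervals, 593 to 615 and 1026 to 1053 FPKM, are far apart, so this spread is larger than counting error. The difference from wild type was -0.17 in knockouts (SE 0.15, 95% interval -0.51 to 0.17, limma adjusted p = 0.71) and -0.33 in heterozygotes (SE 0.15, 95% interval -0.67 to 0.01, limma adjusted p = 0.94). The size rested on single libraries: in knockouts it was -0.07 if either knockout replicate 3 or wild-type replicate 3 was dropped and -0.26 if wild-type replicate 1 was, and in heterozygotes -0.20 without heterozygote replicate 1 and -0.48 without heterozygote replicate 2. Between knockouts and heterozygotes it was 0.16 (SE 0.15, 95% interval -0.18 to 0.50, limma adjusted p = 1).

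Irx2, which has been used as a marker of the alpha lineage, likewise showed no difference beyond its spread. It was at 3.63, 3.01 and 2.22 FPKM in knockouts, 2.6, 3.32 and 2.33 FPKM in heterozygotes, and 2.75, 2.98 and 3.77 FPKM in wild type. The group ranges overlap throughout. Differences were -0.09 between knockouts and wild type (SE 0.16, 95% interval -0.44 to 0.27, limma adjusted p = 0.86), and this sign turned when knockout replicate 3 (0.06) or wild-type replicate 3 (0.02) was left out. Between heterozygotes and wild type the difference was -0.15 (95% interval -0.51 to 0.20), and between knockouts and heterozygotes 0.07 (95% interval -0.29 to 0.43; limma adjusted p = 0.95 and 1).

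Irx1 was the most even of the 4 genes. It was at 2.7, 2.65 and 2.61 FPKM in knockouts, 2.2, 3.03 and 3 FPKM in heterozygotes, and 3.12, 2.64 and 2.72 FPKM in wild type. Its highest and lowest libraries differed by a ratio of 1.42, and all 9 deposited intervals overlap at 2.6 to 2.68 FPKM. Differences were -0.06 between knockouts and wild type (95% interval -0.31 to 0.18), -0.04 between heterozygotes and wild type (-0.28 to 0.21) and -0.03 between knockouts and heterozygotes (-0.27 to 0.22), with limma adjusted p = 0.85, 0.98 and 1. Changes beyond these bounds, on the log2(FPKM + 1) scale, are outside the 95% intervals, while smaller ones lie within them. The smallest change of Irx1 that 3 libraries a group could detect was not determined.

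**Figure D2:**
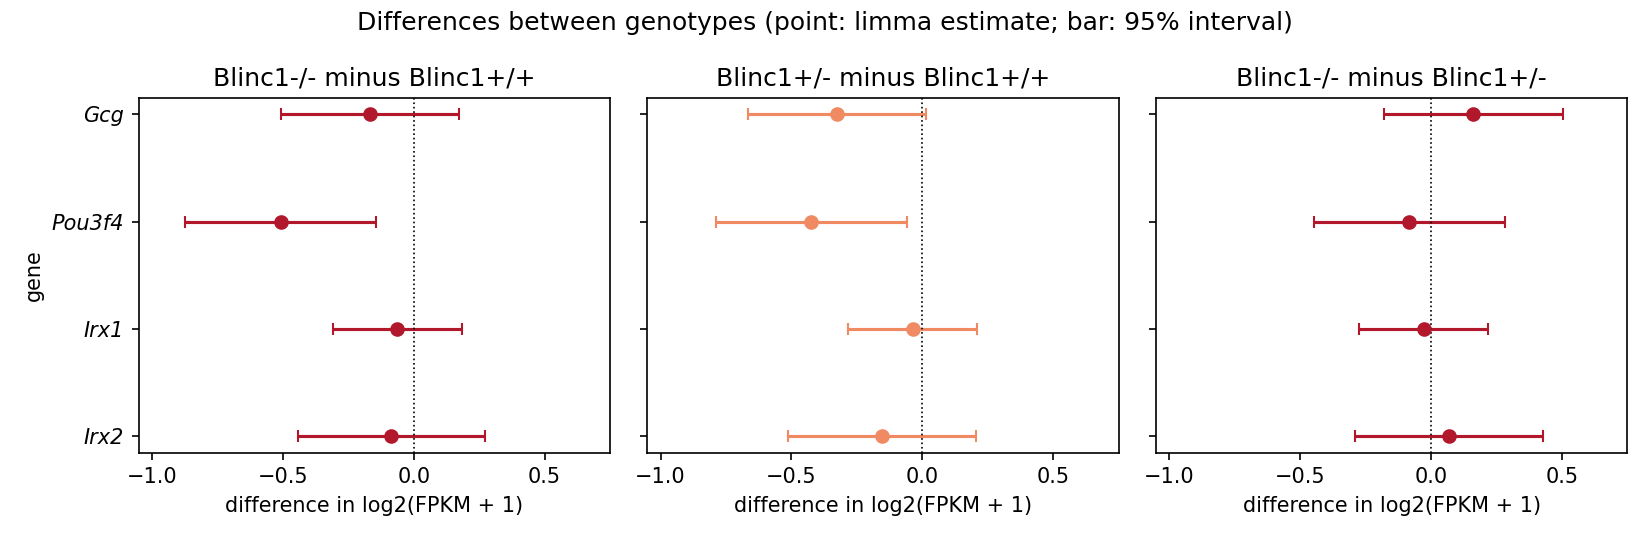
Differences in log2(FPKM + 1) between genotypes (horizontal axes) for the 4 genes (rows), as limma estimates with 95% intervals from the fit of all 9 libraries. The intervals of Pou3f4 lie below 0 against wild type, at -0.87 to -0.14 in knockouts and -0.79 to -0.06 in heterozygotes, while the other intervals include 0 and 0 genes passed after adjustment.

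The test behind these values called 0 of the 4 genes in any comparison, and over all 13306 tested genes limma called 0 (percent called 0) in each of the 3. The number under an unadjusted p of 0.05 was 1117 for knockouts against wild type, 522 for heterozygotes against wild type and 296 for knockouts against heterozygotes, and voom called 0 in each. The means of all 4 genes were lower in knockouts than in wild type, as were those of 58.5% of all tested genes. The median difference of the 4 was -0.13, against -0.03 for all tested genes. In heterozygotes the means of all 4 were also lower than in wild type (median difference -0.24), as were those of 57.1% of all tested genes (median -0.02).

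Among the 14 other regulators of alpha cells or of Gcg listed, 13 were tested and 0 passed. Of the 13, 11 had lower means in knockouts than in wild type (median difference -0.23). Over all tested genes 58.5% did (median -0.03). Pax6, a paired-domain activator of Gcg, was at 11.2, 7.59 and 7.91 FPKM in knockouts, against 10.3, 11.2 and 12.5 FPKM in wild type (difference -0.33, SE 0.16). Knockout replicate 1 lay within the wild-type range of Pax6 and the other knockouts below it. Maf was at 12.6, 10.1 and 10.1 FPKM in knockouts, against 16.5, 16.9 and 13.1 FPKM in wild type (-0.46, SE 0.15), without overlap. Of all tested genes, 6.64% likewise had every knockout library below every wild-type library. Foxa2, a forkhead factor needed for the alpha cell programme, was on the other side, at 34.5 ± 1.44 FPKM in knockouts and 30.1 ± 1.61 FPKM in wild type (0.19, SE 0.05). The smallest adjusted p of this list was shared by genes including Foxa2, Maf, Pax6 and Nkx2-2 (limma adjusted p = 0.58). In heterozygotes 10 of 13 had lower means than in wild type, as 57.1% of all tested genes had, and 0 passed.

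Nkx2-2, a homeodomain factor of the islet lineages, varied widely among the mutant libraries. It was at 24.9, 6.08 and 5.48 FPKM in knockouts, 6.37, 19 and 13.4 FPKM in heterozygotes, and 15.2, 21.7 and 25.5 FPKM in wild type. Knockout replicate 1, with Nkx2-2 in the wild-type range, also had the highest Gcg, Pou3f4, Irx1 and Irx2 of the knockouts. Heterozygote replicate 1, with low Nkx2-2, had the lowest Gcg, Pou3f4 and Irx1 of the heterozygotes but not the lowest Irx2. These 2 libraries also carried the most RNA of the neuron and glia list, whose 10 genes summed to 273 and 329 FPKM, against 89.1 to 189 FPKM in the other 7 libraries. Of that list 5 of 10 genes had higher and 5 lower means in knockouts than in wild type, all 10 were detected, and Stmn2 was the highest at 18.3 to 101 FPKM. Pou3f4 is also a gene of the developing nervous system; of these 2 libraries, knockout replicate 1 had the highest Pou3f4 of its group and heterozygote replicate 1 the lowest. The part of nerve RNA in the result was not tested. With both libraries left out, an alternative chosen once the Nkx2-2 levels were known, Pou3f4 differed by -0.70 between knockouts and wild type (SE 0.13, limma adjusted p = 0.078) and Gcg by -0.25 (SE 0.14, limma adjusted p = 0.36).

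Of the 11 other alpha cell products listed, 10 were tested, 0 passed and 7 had lower means in knockouts than in wild type, against 58.5% of all tested genes. Ttr, transthyretin, abundant in alpha cells, averaged 324 ± 77.3 FPKM in knockouts and 433 ± 72.1 FPKM in wild type (-0.43, SE 0.23). Pcsk2 averaged 23.2 ± 5.38 FPKM in knockouts and 27.4 ± 3.75 FPKM in wild type (-0.25, SE 0.18). Slc7a2, an amino acid transporter gene, averaged 4.37 ± 1.01 and 5.4 ± 0.12 FPKM in these groups, and Sphkap 1.62 ± 0.493 and 2.58 ± 0.224 FPKM. Slc38a5, a glutamine transporter of proliferating alpha cells, differed little, at 89 ± 6.86 and 91.3 ± 8.69 FPKM. Tm4sf4, a tetraspanin-like gene, ran the other way, at 43.3, 113 and 87.9 FPKM in knockouts, against 51.6, 41.9 and 55.6 FPKM in wild type (0.60, SE 0.31). In heterozygotes 9 of 10 had lower means than in wild type, against 57.1% of all tested genes, with 0 passing.

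Of 8 listed genes that process or respond to proglucagon, 5 were tested and 0 passed, with 3 lower and 2 higher means in knockouts than in wild type (median difference -0.28, against -0.03 for all tested genes). Pcsk1 averaged 10.4 ± 2.41 FPKM in knockouts and 13.3 ± 1.7 FPKM in wild type, Dpp4 8.48 ± 0.274 and 8.23 ± 0.404 FPKM, and Cpe, a carboxypeptidase that trims prohormones, 223 ± 20.4 and 212 ± 10.1 FPKM. Pam, the peptide amidating enzyme, averaged 34.6 ± 7.13 and 42.4 ± 1.18 FPKM (-0.30, SE 0.12, limma adjusted p = 0.58). Pcsk1n, the gene of a Pcsk1 inhibitor, averaged 8.01 ± 4.43 FPKM in knockouts and 9.46 ± 2.85 FPKM in wild type (-0.28, SE 0.32). The receptor genes Gcgr, Glp1r and Glp2r were at 1.73 FPKM or less in every library and were below the filter. Glp1r averaged 0.445 ± 0.279 FPKM in knockouts and 1.05 ± 0.595 FPKM in wild type, and Glp2r 0.351 ± 0.305 FPKM in knockouts and 0.934 ± 0.319 FPKM in wild type (SD, n = 3 each), without a test.

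**Figure D3:**
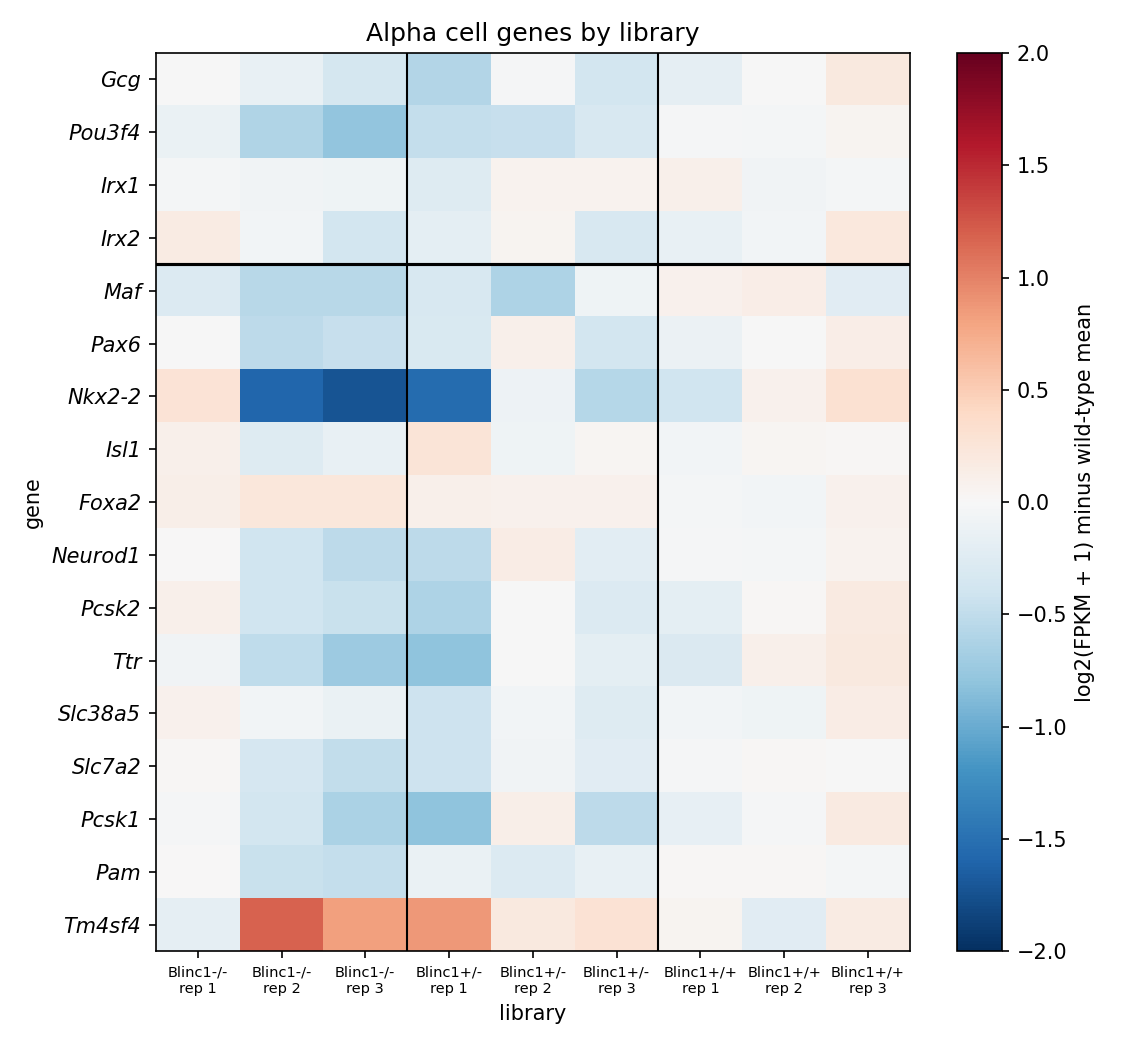
Colour shows log2(FPKM + 1) minus the mean of the 3 wild-type libraries for the 4 genes (above the line) and 13 listed alpha cell genes, in the 9 libraries (columns). Knockout replicates 2 and 3 and heterozygote replicate 1 are blue at Nkx2-2, with 6.08, 5.48 and 6.37 FPKM against 15.2 to 25.5 FPKM in wild type, and at several other rows, while knockout replicate 1 is close to wild type.

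Beta-side factors, other hormones and genes shared by endocrine cells gave a comparison within the endocrine compartment. Beside the counts that follow, 58.5% of all tested genes had lower means in knockouts than in wild type (median difference -0.03). Of 5 factors that act in the beta lineage, 2 had lower and 3 higher means in knockouts than in wild type (median difference 0.01) and 0 passed; Pax4, a paired-domain factor of the beta lineage, averaged 5.18 ± 0.891 FPKM in knockouts and 5.99 ± 1.03 FPKM in wild type. Of the 7 other islet hormones, 5 had lower and 2 higher means in knockouts than in wild type (median difference -0.45) and 0 passed. Ins2 (-0.70, SE 0.30), Ins1 (-0.87, SE 0.40) and Iapp (-0.45, SE 0.22) had lower means in knockouts, and Sst a higher one (0.89, SE 0.41), each with limma adjusted p = 0.58. Of 8 genes shared by endocrine cells, 7 had lower means in knockouts than in wild type (median difference -0.34) and 0 passed, with Chga at -0.63 (SE 0.27). Both medians were further from 0 than that of the 4 genes. The ratio of Gcg to Ins1 FPKM was 1.44, 3.51 and 3.06 in knockouts, against 1.9, 1.25 and 1.52 in wild type. The ratio of Gcg to Sst was 5.99, 1.95 and 1.57 in knockouts, against 5.26, 5.8 and 5.44 in wild type. Knockout replicates 2 and 3 thus had more Gcg relative to Ins1 and less relative to Sst than any wild-type library, while knockout replicate 1 lay within the wild-type range relative to Ins1 and above it relative to Sst. All 8 acinar genes had higher means in knockouts than in wild type, 0 passed, and their summed FPKM was 12210 to 19604 in knockouts, 14639 to 16201 in heterozygotes and 12541 to 13240 in wild type. Its part in the FPKM of the alpha cell genes was not tested.

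Across the 9 libraries Gcg and Irx2 followed each other. Over 6 pairs of the 4 genes, correlated on the log2(FPKM + 1) scale, Gcg with Irx2 gave Pearson r = 0.84 (exact permutation p = 0.0047, adjusted p = 0.028) and Spearman rho = 0.88 (exact permutation p = 0.0031, adjusted p = 0.018). Without heterozygote replicate 1 and wild-type replicate 3, the 2 libraries farthest from the median Gcg, r was 0.94. No other pair passed by either coefficient. Gcg with Pou3f4 gave r = 0.59 and rho = 0.58 (exact permutation adjusted p = 0.23 and 0.24). Irx1 and Irx2, though neighbours in the genome, gave r = 0.09 and rho = 0.32 (exact permutation adjusted p = 0.82 and 0.49). The libraries share genotype groups, and with 5 female and 4 male libraries each sex holds fewer than the 6 libraries set as the minimum for a correlation, so none was computed within a sex. Among the females both genes were highest in wild-type replicate 3, then in knockout replicate 1 and then in knockout replicate 2. Among the males the order of the 2 genes differed, with Gcg highest in wild-type replicate 2 and Irx2 highest in heterozygote replicate 2, and both lowest in heterozygote replicate 1.

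**Figure D4:**
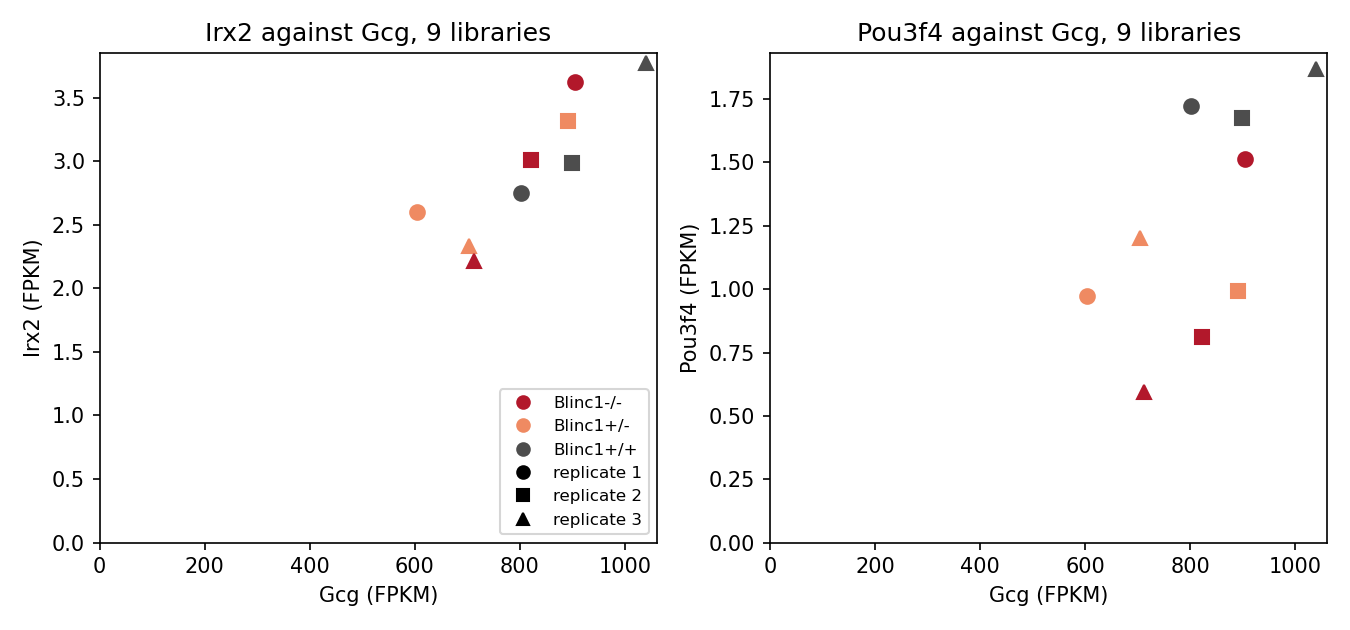
Irx2 (left) and Pou3f4 (right) against Gcg, all in FPKM on linear axes from 0, with 1 point for each of the 9 libraries, coloured by genotype and shaped by replicate number. Irx2 rises with Gcg across genotypes (r = 0.84), whereas the 3 wild-type libraries hold the highest Pou3f4 at Gcg levels that overlap those of the mutants.

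The genes whose pattern over the 9 libraries was most like each of the 4 were ranked by Pearson r among all tested genes, as a description. For Gcg they were Pcsk1 (r = 0.95), Dbpht2 (0.94), Vil1 (0.94), Ptprn2 (0.94) and Rab27a (0.94), with Pcsk2 at rank 9 (0.92) and Ttr at rank 43 (0.86). For Irx2 they were Lrrc16a (r = 0.95), Vil1 (0.94), Mafa (0.92), Atp2a2 (0.91) and Pyroxd1 (0.90). For Pou3f4 they were Plekha6 (r = 0.97), Ap3m2 (0.96), Pex5l (0.96), Lpar1 (0.95) and Slitrk6 (0.94), with Nkx2-2 at rank 190 (0.84). For Irx1 they were Aldh3a2 (r = 0.92), Ggh (0.92), Csgalnact1 (0.90), 1110054O05Rik (0.89) and Tiparp (0.89), with Nkx2-2 at rank 1015 (0.47). Vil1, the gene of villin, an actin-bundling protein of epithelial microvilli, is in the first 5 of both Gcg and Irx2. It is also on the list of gut genes described below.

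Defining markers of pancreas were present, with Cpa1 at 7457 to 11632 FPKM, Pdx1 at 29.8 to 38.7 FPKM and Ptf1a at 67.6 to 118 FPKM. For gut, another source of Gcg, the 9 genes listed did not give a single picture. The defining gene Cdx2 peaked at 0.25 FPKM over the libraries, Fabp2 at 0.177, Cdx1 at 0.248, Nts at 1.27 and Fabp1 at 2.8 FPKM. Gip, in contrast, ranged from 6.61 to 14.9 FPKM, Vil1 from 6.18 to 10.8 FPKM and Cck from 4.39 to 9.81 FPKM. The 9 gut genes summed to 381 to 472 FPKM in knockouts, 353 to 511 FPKM in heterozygotes and 406 to 544 FPKM in wild type, nearly all of it Pyy, which islet cells also make. All 10 mesenchyme genes had lower means in knockouts than in wild type, where 58.5% of all tested genes did, with sums of 1177 to 1695 FPKM in knockouts and 1481 to 1956 FPKM in wild type. The same held for 5 of 5 endothelium genes, with sums of 117 to 150.2 FPKM in knockouts and 144 to 171 FPKM in wild type, and for 5 of 5 immune genes, with sums of 189 to 217 FPKM in knockouts and 230 to 254 FPKM in wild type. All 5 erythroid genes had lower means in heterozygotes than in wild type (median difference -0.59), where 57.1% of all tested genes did (median -0.02). Of these lists 0 genes passed. Liver genes summed to 36.8 to 61.8 FPKM in knockouts, 37.6 to 44.6 FPKM in heterozygotes and 37.6 to 108 FPKM in wild type. The part of these tissues in the levels of the 4 genes was not tested.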

How the data were processed

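The 9 RNA sequencing libraries of whole pancreas were used. Per the labels' series design text, TopHat 2.0.4 aligned the reads to mm9, allowing 4 mismatches and 10 hits. The submitters' processing notes also name CASAVA 1.8.2, Cufflinks and DESeq. The deposited FPKM values and their confidence bounds, also FPKM, were used as the authors gave them; annotation and strandedness were not given in the sources used here. FPKM of symbols with several loci were summed, and 4 symbols with failed estimates for excess data were removed. Implied fragments are the square of 2 FPKM over the distance to the upper bound, and 73.8% to 74.7% of genes under 500 came out whole within 0.05.

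Genes with at least 1 FPKM in 3 libraries were tested on log2(FPKM + 1) with limma 3.58.1 (R 4.3.3), an intensity trend, a single model of the 9 libraries and genotype alone as a factor. Tests were two-sided, with Benjamini-Hochberg adjustment over all tested genes and a threshold of 0.05. The procedure was tested on simulated fragments that gave every gene the same fixed dispersion. That setting does not show its power for genes as variable as Pou3f4 or Nkx2-2 here. The members and lists were chosen with earlier results of these data known. From each list up to 4 genes with the smallest p between knockouts and wild type are named, with Pax6, Pcsk2, Ttr and Nkx2-2 in any case; some genes the rule names are not reported here. Genes named beyond these were chosen after their values were seen. The 5 most similar genes per member follow Pearson r. Alternatives were pseudocounts, filters, scalings, fits of 2 groups, a replicate block, sex, array weights, voom and leaving out libraries.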

Additional observations from a re-analysis of the deposited data

How the results depend on the processing

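Under 21 alternatives for each of the 12 differences between genotypes, 239 of 252 values kept their direction and 0 passed the threshold. Pou3f4 against wild type stayed negative throughout, between -0.91 and -0.37 in knockouts (limma adjusted p = 0.063 to 0.97) and between -0.73 and -0.40 in heterozygotes. Gcg against wild type stayed negative too, between -0.28 and -0.07 in knockouts and between -0.48 and -0.20 in heterozygotes. The 13 values that turned sign belonged to differences that had not passed, and the cause was not tested. With libraries left out, Irx2 in knockouts against wild type ranged from -0.207 to 0.0555, turning without knockout replicate 3 or wild-type replicate 3. Irx1 in heterozygotes against wild type ranged from -0.0932 to 0.0729, turning without heterozygote replicate 1 or wild-type replicate 1. For knockouts against heterozygotes the range was -0.0780 to 0.209 for Irx2 (turning without knockout replicate 1 or heterozygote replicate 3), -0.146 to 0.0294 for Irx1 (without heterozygote replicate 2 or 3), -0.301 to 0.0576 for Pou3f4 (without knockout replicate 3) and -0.0491 to 0.312 for Gcg. These ranges include a fit that drops knockout replicate 1 together with heterozygote replicate 1, chosen after seeing the data, in which Gcg, Irx2 and, at 0.0729 in heterozygotes against wild type, Irx1 turned sign. Array weights gave -0.123 for Irx2 in knockouts against heterozygotes.

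The count of genes called was 0 in each comparison. With only the 2 groups in the fit it was 1 for knockouts and 6 for heterozygotes against wild type, and with array weights it was 5 for knockouts against wild type. Leaving out 1 library gave 0 to 1 for knockouts against wild type, 0 to 7 for heterozygotes against wild type (7 without knockout replicate 1, 2 without heterozygote replicate 2, 1 without wild-type replicate 1) and 0 to 4 for knockouts against heterozygotes (4 without knockout replicate 1). Without both libraries the counts were 4, 5 and 5 in this order. With the replicate number as a block, 1 gene was called in heterozygotes against wild type and no call of the 4 genes changed. Deviations of same-numbered libraries correlated between -0.19 and 0.29, and those of unlike numbers between -0.34 and 0.28. Not every library correlated best with its own number. Whether equal numbers mark a shared litter or day cannot be told from these values. Depth limits Pou3f4 most, at 11 to 40 implied fragments per library.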

Other observations

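Scg5, which encodes 7B2, the chaperone that Pcsk2 needs to mature, varied more than Pcsk2 relative to its mean within each genotype. Its SD as a percentage of the mean was 99.5% in knockouts, 28.8% in heterozygotes and 29% in wild type. For Pcsk2 it was 23.2%, 21.6% and 13.7% in this order. In FPKM the SD in heterozygotes was larger for Pcsk2, at 4.83 against 3.91. Scg5 was at 32.9, 7.77 and 5.31 FPKM in knockouts, 16.5, 9.12 and 15.1 FPKM in heterozygotes, and 15.9, 22.7 and 29 FPKM in wild type. Pcsk2 was at 29.3, 20.4 and 19.7 FPKM in knockouts, 17.5, 27.2 and 22.5 FPKM in heterozygotes, and 23.6, 27.7 and 31.1 FPKM in wild type. Among the mutants, Scg5 was highest in knockout replicate 1 and heterozygote replicate 1 of their groups, the 2 libraries whose neuron and glia genes summed highest, to 273 and 329 FPKM; the part of these cells in Scg5 was not tested. The pattern was chosen after its values were seen, and the difference of Scg5 between knockouts and wild type did not pass (-0.89, SE 0.54, limma adjusted p = 0.60).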
